A study of Homo sapiens with 28 samples.

Results

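The aminoacyl-tRNA synthetases, the enzymes that charge tRNAs with their amino acids, were followed in melanoma cells given a BET bromodomain inhibitor. Genes were taken by symbol: 1 or 2 letters followed by ARS, ARS1 or ARS2, with EPRS1 added. The rule found 32 of the 22357 genes that a probe set names, 17 cytosolic and 15 mitochondrial (symbols ending in ARS2). Of the 9285 genes bright enough to be tested, 31 were synthetases, all 17 cytosolic and 14 mitochondrial. The exception was CARS2, the mitochondrial cysteinyl-tRNA synthetase, whose mean log2 intensity of 4.08 lay under the limit for testing on every array. SARS2 was not analysed here, because its probe sets also name a neighbouring gene.

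RNA of CHL-1, a human melanoma cell line, was read on 28 Affymetrix arrays. BAY1238097, which blocks the bromodomains by which BET proteins bind acetylated histones, was given at 75 nM or at 468 nM, described by the submitters as the IC50 and the IC90. The control groups received the vehicle DMSO, and held 4 arrays at 4 h and 4 at 24 h. Each dose had 5 arrays at each of these times. Replicate numbers only name the arrays within a group, and the labels do not say that replicates were separate cultures, so p-values cover only the spread among these arrays, possibly a technical one. In such bulk RNA, fewer cells that express a gene and less RNA per cell cannot be told apart.

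Each synthetase recognises the tRNAs of its amino acid and joins the amino acid to their 3′ end, which makes it an entry point of protein synthesis. Nuclear genes encode separate enzymes for the cytosol and for mitochondria in most cases, while GARS1 (glycine) and KARS1 (lysine) each give rise to a form for either compartment and count as cytosolic here. Several cytosolic enzymes are held together in the multi-synthetase complex, and several cytosolic genes are known targets of ATF4, the transcription factor of the amino acid response.

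Intensities were deposited after normalization, so values are relative within an array, and the median log2 value of an array lay between 2.44 and 2.49. SOX10 (mean log2 9.55) and S100B (6.95), markers of the melanocyte lineage, were present. MITF (2.60), PMEL (2.95), MLANA (1.51) and TYR (1.30), which mark pigmented melanocytes, were at background. The 16 genes with a probe set that mark endothelial cells, keratinocytes, leukocytes or fibroblasts lay between 0.92 and 4.69, and of these CD68 alone was bright enough to be tested. Cytosolic synthetase probe sets had mean log2 values from 5.84 (HARS1) to 10.65 (NARS1) with a median of 9.28, mitochondrial ones from 5.49 (PARS2) to 9.46 (IARS2) with a median of 7.25. These are brightnesses of different probes and give no order of transcript amounts.

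Promoter windows from RefSeq (GRCh38.p14), from 250 bases before to 50 bases after an annotated start, were matched for 27 of the 32 genes, 14 cytosolic and 13 mitochondrial. LARS1, VARS1, YARS1, AARS2 and VARS2 had no match. They were searched on both strands for TGATGNAA, the core of the element that ATF4 binds with a C/EBP partner, and for CACGTG, the E-box bound by MYC with MAX. The matches of both motifs in IARS1 do not overlap. The windows printed here were chosen after the search and after the expression values were known. They show the motif in genes that fell, its absence in QARS1, which rose, and the E-box of EARS2. Capitals mark a match to a motif, and all sequences run 5′ to 3′ on the gene's strand.

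IARS1, chr9:92293678-92293897, minus strand, from 200 bases before the start to 20 bases after it: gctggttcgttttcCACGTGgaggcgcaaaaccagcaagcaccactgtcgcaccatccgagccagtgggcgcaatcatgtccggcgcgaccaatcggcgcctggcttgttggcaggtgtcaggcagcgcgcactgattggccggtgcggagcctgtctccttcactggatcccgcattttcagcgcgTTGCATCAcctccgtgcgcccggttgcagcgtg
CARS1, chr11:3057404-3057503, minus strand: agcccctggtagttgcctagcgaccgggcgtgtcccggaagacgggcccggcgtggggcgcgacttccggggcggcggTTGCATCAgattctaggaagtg
MARS1, chr12:57487988-57488087, plus strand: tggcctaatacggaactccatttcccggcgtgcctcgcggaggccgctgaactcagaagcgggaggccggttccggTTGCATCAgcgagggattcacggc
TARS1, chr5:33440885-33440984, plus strand: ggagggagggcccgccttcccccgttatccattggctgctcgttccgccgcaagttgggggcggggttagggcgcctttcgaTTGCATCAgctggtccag
AARS1, chr16:70289627-70289726, minus strand, beginning 220 bases before the start: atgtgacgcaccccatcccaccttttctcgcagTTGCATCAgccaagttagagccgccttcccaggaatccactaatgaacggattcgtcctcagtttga
QARS1, chr3:49104738-49104837, minus strand: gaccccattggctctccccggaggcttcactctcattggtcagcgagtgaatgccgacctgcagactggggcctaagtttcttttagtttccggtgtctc
EARS2, chr16:23557331-23557430, minus strand: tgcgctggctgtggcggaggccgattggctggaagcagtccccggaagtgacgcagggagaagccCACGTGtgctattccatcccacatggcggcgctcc

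The windows of CARS1, MARS1, TARS1, QARS1 and EARS2 run from 80 bases before the start to 20 bases after it. TGATGNAA was found in 7 of the 14 cytosolic genes with a window, AARS1, CARS1, GARS1, IARS1, MARS1, NARS1 and TARS1, and in 1 of the 13 mitochondrial genes, YARS2. Of all 27305 genes with a window, 4.46% held it, as did 3.62% of all 35116 windows of this length. CACGTG was found in IARS1 and, among mitochondrial genes, in CARS2, EARS2 and MARS2, against 8.77% of all genes and 7.26% of all windows. A match describes letters and does not show that a protein binds there. The windows of HARS1 and HARS2 overlap on chromosome 5, where these genes run head to head.

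At 4 h no synthetase passed the test at either dose. Of the 31, 0 were called at 75 nM, where 0.679% of all genes tested were called, and 0 at 468 nM, where 10.9% were (limma, Benjamini-Hochberg adjusted p below 0.05). At an unadjusted p below 0.05 there was 1 at 75 nM (AARS2) and there were 3 at 468 nM (FARS2, PARS2 and YARS2). Of all genes tested 8.72% and 22.3% had such a p. All of these synthetases were mitochondrial, 7.14% of that class at 75 nM and 21.4% at 468 nM. So the cytosolic class lay below the background and the mitochondrial class near it. At 468 nM the cytosolic changes lay between -0.16 and 0.34 on the log2 scale with a median of -0.040, the mitochondrial ones between -0.28 and 0.38 with a median of -0.112, and the median over all genes tested was -0.027. With the arrays set level on reference genes the medians were -0.165, -0.237 and -0.153, in the same order. PARS2, the mitochondrial prolyl-tRNA synthetase, passed without DMSO replicate 4 (0.51, adjusted p = 0.0368), and YARS2, the mitochondrial tyrosyl-tRNA synthetase, passed without DMSO replicate 3 (-0.41, adjusted p = 0.0326). The arrays of NARS2 at 468 nM lay below all DMSO arrays at 4 h, with a change of -0.19 ± 0.12 that did not pass, where 8.25% of all genes tested had separate lower ranges. MYC, by contrast, was already lower at this time, by 1.07 ± 0.13 on the log2 scale (SE, adjusted p = 2.59e-06).

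At 24 h the cytosolic synthetases were lower at 468 nM, and the mitochondrial ones went in either direction. Against DMSO, 13 of the 17 cytosolic genes fell and QARS1 rose, where 25.1% of all genes tested fell and 20.4% rose, 45.6% together. The median cytosolic change was -0.471, with a range from -1.28 (YARS1) to 0.38 (QARS1). Of the 14 mitochondrial genes 6 fell and 3 rose, with a median of -0.143, and the median over all genes tested was -0.019. The share that rose is near the 20.4% of all genes tested. Of the 3, NARS2 and WARS2 missed the threshold without some single arrays. The mitochondrial median was -0.082 without DMSO replicate 2 and -0.085 without replicate 4 of 468 nM. The mitochondrial median turned to 0.092 when genes had to exceed log2 7, which left the brighter members, whereas the cytosolic median stayed below 0 under every alternative run.

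Brightness differed between the classes, so the counts were also set beside genes of similar brightness, a step added after the data were seen. Among the 2392 genes with a mean log2 value above 8, 27.4% fell and 24.7% rose. Of the 14 cytosolic synthetases above 8, 11 fell and 1 rose. Both mitochondrial synthetases above 8, IARS2 and RARS2, had changes above 0 (0.24 and 0.21) that did not pass the test.

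**Figure D1:**
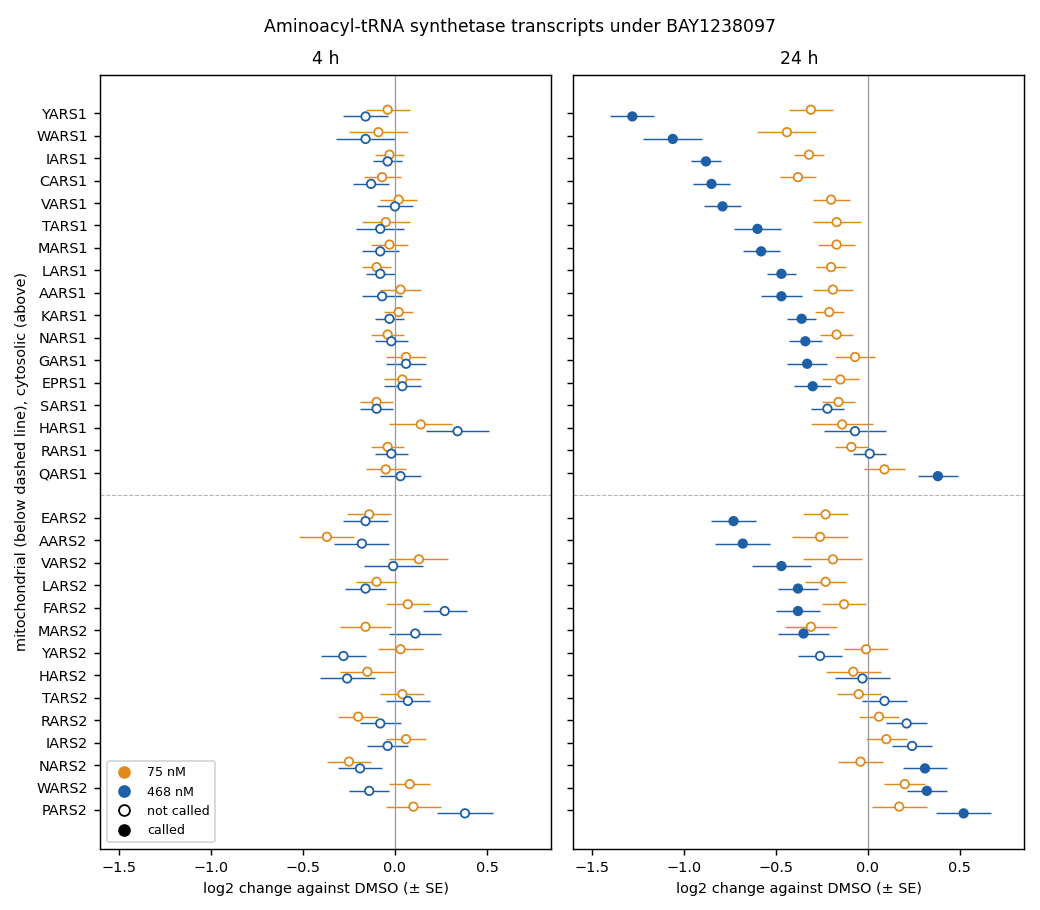
Log2 change against DMSO (x axis, ± SE) of the 31 synthetases tested (y axis) at 4 h and at 24 h, for 75 nM (orange) and 468 nM (blue), with cytosolic genes above the dashed line and filled points for genes called. At 4 h no point is filled; at 24 h the filled cytosolic points at 468 nM run from -1.28 (YARS1) to -0.30 (EPRS1), with QARS1 at 0.38, and the mitochondrial ones lie on either side of 0.

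YARS1, the cytosolic tyrosyl-tRNA synthetase, fell most among the synthetases. Its log2 values in the DMSO arrays at 24 h were 8.28, 8.50, 8.46 and 8.46, those at 75 nM 8.15, 8.24, 7.94, 8.13 and 8.10, and those at 468 nM 7.23, 6.72, 7.06, 7.29 and 7.43. The groups did not overlap, and every array at 468 nM lay below every array at 75 nM. At 468 nM it was 2.43-fold lower than in DMSO (-1.28 ± 0.12 on the log2 scale, SE, adjusted p = 5.76e-09). At 4 h the values of all arrays lay between 8.22 and 8.75.

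WARS1, the cytosolic tryptophanyl-tRNA synthetase, which is also known as an interferon-induced gene, followed. It read 7.38, 7.20, 6.92 and 7.46 in DMSO at 24 h, 6.97, 6.69, 6.82, 6.50 and 7.02 at 75 nM, and 6.30, 6.14, 6.08, 6.10 and 6.27 at 468 nM. The 75 nM arrays overlapped those of DMSO, while the 468 nM arrays lay below all others. The change at 468 nM was -1.06 ± 0.16 (adjusted p = 7.69e-06), a 2.09-fold lower level.

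IARS1, the cytosolic isoleucyl-tRNA synthetase and a member of the multi-synthetase complex, has both motifs in the window printed above. Its values at 24 h were 10.46, 10.39, 10.53 and 10.40 in DMSO, 10.05, 10.11, 10.13, 10.08 and 10.23 at 75 nM, and 9.37, 9.53, 9.54, 9.71 and 9.68 at 468 nM. The groups formed separate ranges in the order of dose. At 468 nM the change was -0.88 ± 0.08 (adjusted p = 4.95e-09), and at 4 h all arrays lay between 10.18 and 10.50.

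CARS1, which charges cysteine tRNAs, read 7.41, 7.36, 7.69 and 7.77 in DMSO at 24 h, 7.14, 7.28, 7.39, 7.05 and 7.04 at 75 nM, and 6.66, 6.68, 6.60, 6.93 and 6.63 at 468 nM, a change of -0.85 ± 0.10 (adjusted p = 3.04e-07). The arrays at 468 nM lay below all others, and those at 75 nM reached into the DMSO range. VARS1, the valyl enzyme, read 8.92, 8.56, 8.64 and 8.52 in DMSO, 8.48, 8.30, 8.35, 8.64 and 8.52 at 75 nM, and 7.89, 7.89, 7.87, 7.76 and 7.94 at 468 nM. Its change was -0.79 ± 0.10 (adjusted p = 3.04e-07), and its other probe set differed by the same -0.79. As for CARS1, only the higher dose was separate from the vehicle.

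The other cytosolic enzymes that fell changed less. TARS1 (threonine, -0.60 ± 0.13), MARS1 (methionine, -0.58 ± 0.10), LARS1 (leucine, -0.47 ± 0.08), AARS1 (alanine, -0.47 ± 0.11), KARS1 (-0.36 ± 0.08) and NARS1 (asparagine, -0.34 ± 0.09) were lower on every 468 nM array than on any DMSO array, with adjusted p from 2.78e-05 to 0.00275. GARS1 (-0.33 ± 0.11) and EPRS1 (-0.30 ± 0.10), the fused glutamyl- and prolyl-tRNA synthetase, fell with overlapping arrays. So 11 of the 13 that fell had separate ranges, as did 66.9% of all genes that fell and 17.1% of all genes tested. Those 11 were called in every alternative in which they were tested. GARS1 (adjusted p = 0.0691) and EPRS1 (adjusted p = 0.095) missed the threshold when only the compared groups entered the fit.

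QARS1, the glutaminyl-tRNA synthetase, went the other way. It read 8.98, 9.02, 8.81 and 9.16 in DMSO at 24 h and 9.62, 9.06, 9.36, 9.32 and 9.50 at 468 nM, ranges that overlap through 1 treated array. The change was 0.38 ± 0.11 (adjusted p = 0.00662, or 0.0544 with only the compared groups in the fit). RARS1, the arginyl enzyme, read 0.01 ± 0.09, HARS1, the histidyl enzyme, -0.07 ± 0.17, and SARS1, the seryl enzyme, -0.22 ± 0.09 with an adjusted p of 0.0505. Of these SARS1 passed under other settings, among them a limit of log2 7 (adjusted p = 0.0375).

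QARS1 and RARS1 belong to the multi-synthetase complex, as do EPRS1, IARS1, KARS1, LARS1 and MARS1. Of these 7 genes 5 fell and 1 rose, with a median change of -0.363. Of the 10 cytosolic genes outside the complex 8 fell, with a median of -0.536, beside the 25.1% of all genes tested that fell. This grouping was added after the data were seen and no test was made between the groups. Of the 7 cytosolic genes with TGATGNAA in a window all 7 fell, between -0.88 and -0.33 with a median of -0.58. Of the 7 with a window and no match 3 fell (WARS1, KARS1 and EPRS1) and 1 rose (QARS1), with a median of -0.22. Of the 188 genes tested with the motif in a window 34.0% fell and 13.8% rose, and of the 7318 with a window and no match 25.3% fell and 21.0% rose, a background added after the data were seen. WARS1, with no match in its window, had the second largest fall of all cytosolic synthetases.

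EARS2, the mitochondrial glutamyl-tRNA synthetase, fell most among the mitochondrial enzymes. It read 7.37, 7.28, 7.48 and 7.08 in DMSO at 24 h, 7.19, 7.18, 6.92, 6.99 and 7.09 at 75 nM, and 6.90, 6.57, 6.15, 6.55 and 6.67 at 468 nM. The 468 nM arrays lay below all others, with a change of -0.73 ± 0.12 (adjusted p = 2.91e-05). Glutamate is charged in the cytosol by EPRS1, which read 10.33, 10.25, 10.17 and 10.17 in DMSO at 24 h, 10.11, 10.21, 10.14, 9.92 and 10.03 at 75 nM, and 9.84, 10.23, 9.83, 9.73 and 10.05 at 468 nM. Its ranges overlapped through 1 array at 468 nM. AARS2, the alanyl enzyme (-0.68 ± 0.15), and LARS2, the leucyl enzyme (-0.38 ± 0.11), also had separate ranges from DMSO. So 3 of the 14 mitochondrial genes had separate lower ranges, a share near the 17.1% of all genes tested. They were 3 of the 6 that fell, a smaller share than the 66.9% of all genes that fell. PARS2 rose by 0.52 ± 0.15, with 1 of 5 treated arrays inside the DMSO range. These 4, EARS2, AARS2, LARS2 and PARS2, were called in every alternative in which they were tested.

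The other mitochondrial calls rested on single arrays or settings, and without any 1 of the 9 arrays compared 5 rather than 6 mitochondrial genes fell. FARS2, the phenylalanyl enzyme (-0.38 ± 0.12), lost its call once replicate 2 of DMSO was left out (-0.29, adjusted p = 0.0535). WARS2 (tryptophan, 0.32 ± 0.11) missed it without DMSO replicate 3 (adjusted p = 0.0696) or 4 (0.0928). MARS2 (methionine, -0.35 ± 0.14) missed it without replicate 1, 2 or 4 of 468 nM or replicate 1 or 4 of DMSO, with adjusted p between 0.05 and 0.133. NARS2 (asparagine, 0.31 ± 0.12) missed it without replicate 1, 3 or 4 of 468 nM or replicate 1, 2 or 4 of DMSO, with adjusted p between 0.0771 and 0.156.

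VARS2, the mitochondrial valyl enzyme, was called on 1 of 7 probe sets that name it alone. Its brightest probe set read 6.20, 6.28, 6.54 and 6.45 in DMSO at 24 h and 6.03, 5.73, 5.64, 6.44 and 5.64 at 468 nM, a change of -0.47 ± 0.16 (adjusted p = 0.0199). The other 6 probe sets differed by -0.01 to 0.07, and with all probe sets averaged the change was -0.04 (adjusted p = 0.782). The call also missed the threshold without replicate 3 or 5 of 468 nM (adjusted p = 0.0559 and 0.0546) or replicate 3 of DMSO (0.0648).

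The 5 mitochondrial genes not called were YARS2 (-0.26 ± 0.12), HARS2 (-0.03 ± 0.15), TARS2 (0.09 ± 0.12), RARS2 (0.21 ± 0.11) and IARS2 (0.24 ± 0.11). IARS2 read 9.42, 9.55, 9.45 and 9.19 in DMSO and 9.58, 9.69, 9.63, 9.56 and 9.76 at 468 nM. Its ranges were separate, as were those of 13.0% of all genes tested in this direction, with an adjusted p of 0.0637, and it passed without DMSO replicate 2 (0.29, adjusted p = 0.0455). RARS2 passed without DMSO replicate 3 (0.29, adjusted p = 0.0455).

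**Figure D2:**
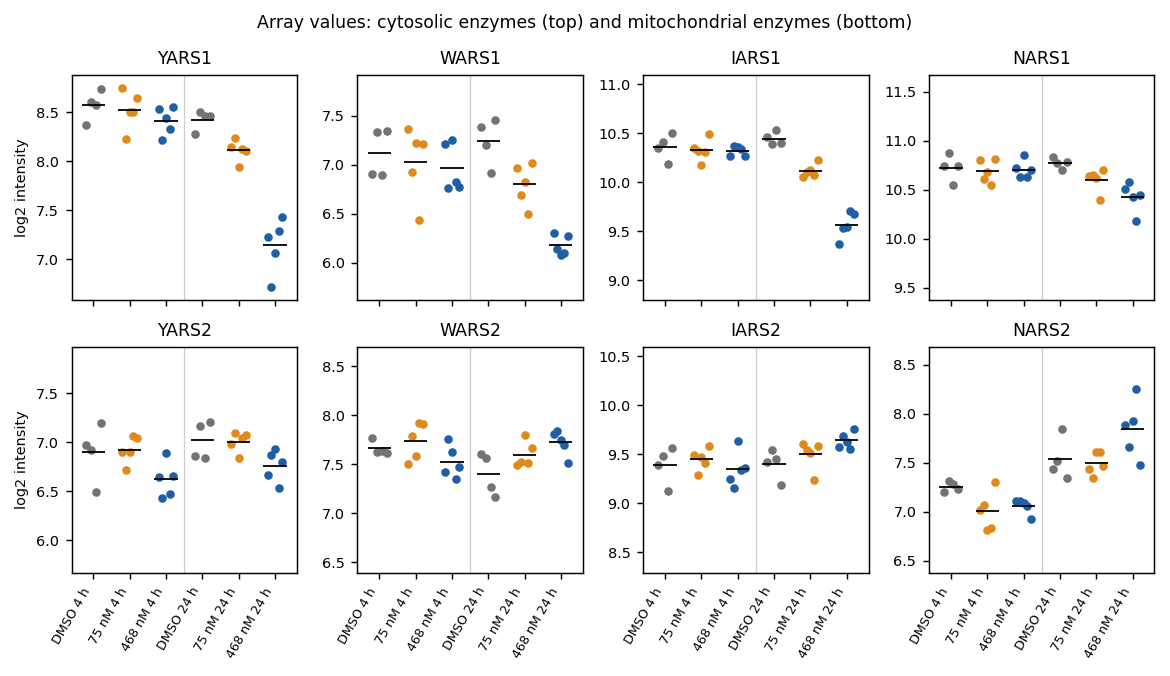
Log2 intensity (y axis) on every array of YARS1, WARS1, IARS1 and NARS1 (top) and of the mitochondrial enzymes for the same amino acids (bottom), by treatment and time (x axis), with DMSO in grey, 75 nM in orange, 468 nM in blue and a line at each group mean. The 468 nM arrays at 24 h form the lowest group of the 4 cytosolic genes (YARS1 6.72 to 7.43), while IARS2 and NARS2 have their highest group mean there (9.65 and 7.84).

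The mitochondrial partners of the enzymes that fell most changed less or rose. YARS2 read 6.86, 7.17, 6.84 and 7.21 in DMSO at 24 h and 6.67, 6.87, 6.93, 6.53 and 6.80 at 468 nM, ranges that overlap. WARS2 read 7.60, 7.56, 7.27 and 7.17 in DMSO and 7.81, 7.84, 7.75, 7.70 and 7.51 at 468 nM, with 1 treated array inside the DMSO range. Its rise is measured from a vehicle mean of 7.40 ± 0.21 (SD, n = 4) at 24 h. At 4 h the vehicle mean was 7.66 ± 0.07 (SD, n = 4), near the 7.72 ± 0.13 (SD, n = 5) of 468 nM at 24 h.

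For 11 amino acids enzymes of both compartments were tested, and the difference of their log2 values was taken within each array. This comparison was added after the data were seen. A change of this difference shows that the 2 genes changed unequally, not which of them stayed level. Between DMSO and 468 nM at 24 h it was negative for 10 of the 11 amino acids, so the cytosolic change was the lower of the pair. For arginine this came from changes of 0.01 (RARS1) and 0.21 (RARS2), and for arginine and histidine neither enzyme was called. Alanine was the exception, with a difference of 0.21.

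The difference moved by -1.38 for tryptophan, -1.12 for isoleucine and -1.02 for tyrosine. For tryptophan it ran from -0.37 to 0.29 in DMSO and from -1.70 to -1.25 at 468 nM. For isoleucine it ran from 0.84 to 1.20 and from -0.21 to 0.15, and for tyrosine from 1.26 to 1.62 and from -0.15 to 0.76. These 3 were the amino acids whose groups did not overlap. Each had an exact two-sided permutation p of 0.0159, the smallest that 4 against 5 arrays allow, and 0.0583 after Benjamini-Hochberg adjustment over the 11 amino acids.

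Threonine (-0.69, exact permutation p = 0.0317), asparagine (-0.65, exact permutation p = 0.0476) and arginine (-0.20, exact permutation p = 0.0476) had overlapping groups. None of the 11 passed 0.05 after adjustment. The smallest movements were those of histidine (-0.04) and leucine (-0.09), whose enzymes had near equal changes in either compartment.

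**Figure D3:**
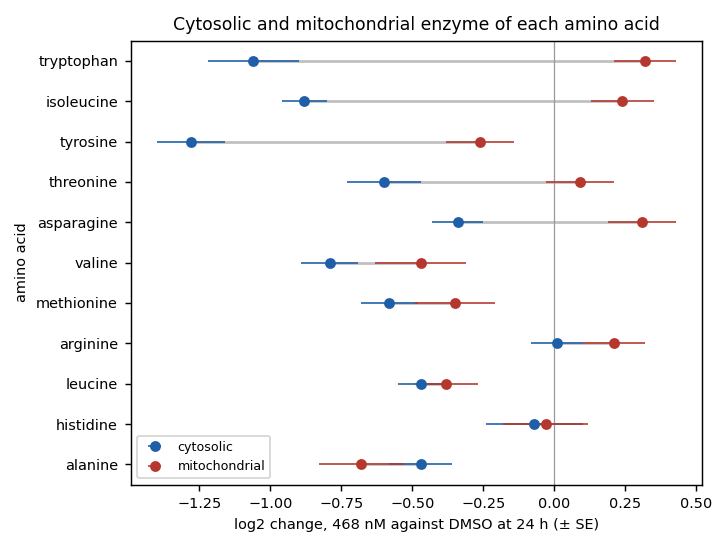
Log2 change from DMSO to 468 nM at 24 h (x axis, ± SE) of the cytosolic (blue) and mitochondrial (red) enzyme of 11 amino acids (y axis), joined by a grey line. The cytosolic point lies to the left for 10 of the 11, and the distance is widest for tryptophan, with -1.06 for WARS1 and 0.32 for WARS2.

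At the lower dose the cytosolic changes were small and nearly all below 0. The doses share their DMSO arrays, so their changes against DMSO are not independent. At 75 nM for 24 h, 0 of the 31 synthetases were called, where 0.872% of all genes tested were. Yet 16 of the 17 cytosolic changes were below 0, with a median of -0.172, against -0.064 for the mitochondrial genes (-0.021 without DMSO replicate 2, -0.107 without DMSO replicate 1, and -0.106 without DMSO replicate 3 or without replicate 2 of 75 nM; -0.102 without DMSO replicate 4) and -0.016 for all genes tested. At an unadjusted p below 0.05 there were 7 of 17 cytosolic and 2 of 14 mitochondrial genes, against 15.9% of all genes tested, which the mitochondrial share does not exceed. IARS1 (-0.32 ± 0.08) had the lowest adjusted p, 0.0505, and passed with a limit of log2 7 (0.0365) and with array weights (0.0355). CARS1 (-0.38 ± 0.10, adjusted p = 0.075) passed with that limit (0.0485) and with arrays set level on reference genes (0.0283). With a replicate block built from runs of adjacent title codes, IARS1 (adjusted p = 0.0402) and WARS1 (0.0154) passed. Under that block calls over all genes, lower and higher, went from 44 and 37 to 231 and 203. The arrays of IARS1, YARS1, KARS1, LARS1 and NARS1 lay below all DMSO arrays without passing the test, and 4.18% of all genes tested had such separate lower ranges.

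The doses were then compared directly at 24 h. From 75 nM to 468 nM 9 cytosolic genes fell and 1 rose, where 17.4% of all genes tested fell and 13.4% rose, 30.8% together. Of the 14 mitochondrial genes 2 fell (EARS2 and AARS2) and 1 rose (NARS2), shares no higher than those of all genes tested. With arrays set level on reference genes 6 cytosolic genes fell, without AARS1 (adjusted p = 0.24), LARS1 (0.125) and TARS1 (0.0712), and calls over all genes went from 1614 lower and 1246 higher to 1153 and 1274. The median change was -0.272 for the cytosolic class, 0.004 for the mitochondrial class and -0.010 for all genes tested. YARS1 was lower by a further 1.95-fold (-0.97 ± 0.11, adjusted p = 4.71e-07), WARS1 changed by -0.62 ± 0.15, VARS1 by -0.59 ± 0.09, IARS1 by -0.56 ± 0.08, EARS2 by -0.51 ± 0.12 and CARS1 by -0.48 ± 0.10. At 4 h the doses differed for 0 of the 31, where 2.56% of all genes tested were called, and 2 mitochondrial genes had an unadjusted p below 0.05, as had 11.3% of all genes tested.

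Some of these calls between the doses rested on few arrays. QARS1 (0.29 ± 0.10) missed the threshold without replicate 1, 3 or 5 of 468 nM or replicate 1 or 4 of 75 nM (adjusted p between 0.0557 and 0.114). AARS1 (-0.28 ± 0.10) missed it without replicate 3, 4 or 5 of 468 nM or 1, 2 or 5 of 75 nM (adjusted p between 0.0664 and 0.0967). AARS2 (-0.42 ± 0.14) missed it without replicate 3 of 468 nM or 2, 4 or 5 of 75 nM (adjusted p between 0.0505 and 0.068). NARS2 (0.35 ± 0.12) missed it without replicate 3 or 4 of 468 nM or 1 or 2 of 75 nM (adjusted p between 0.051 and 0.0908).

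The class medians can be followed on single arrays as the median over members of the log2 difference from the DMSO mean of the same time. At 24 h the cytosolic median lay between -0.03 and 0.01 on the DMSO arrays, between -0.31 and -0.14 at 75 nM and between -0.59 and -0.32 at 468 nM. The 3 groups did not overlap. The DMSO arrays themselves set the baseline, which centres their values near 0 and narrows their range, and both doses share it. The mitochondrial median lay between -0.13 and 0.12, between -0.14 and 0.08 and between -0.13 and -0.03, so all 3 groups overlapped. At 4 h the cytosolic median of the 468 nM arrays, -0.09 to 0.00, lay within that of DMSO, -0.10 to 0.12. The members were chosen with earlier results known, so these medians are given with no test.

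**Figure D4:**
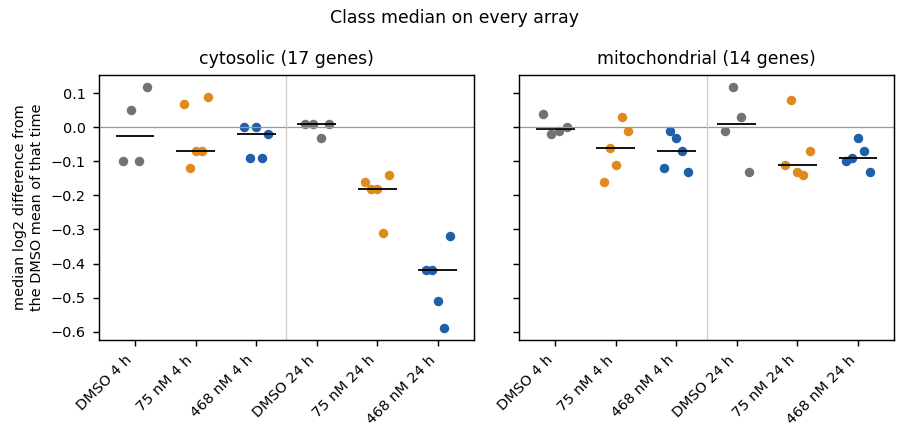
Median over the 17 cytosolic (left) and 14 mitochondrial (right) synthetases of the log2 difference from the DMSO mean of the same time (y axis), 1 point per array, by treatment and time (x axis), with a line at each group's median. The cytosolic points at 24 h step down from DMSO (-0.03 to 0.01) to 75 nM (-0.31 to -0.14) and 468 nM (-0.59 to -0.32), while the mitochondrial groups overlap. The DMSO points lie near 0 by construction, since the DMSO arrays set the baseline.

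The effect of 468 nM differed between 24 h and 4 h for 13 synthetases. By the interaction 9 cytosolic genes had a lower effect at 24 h, where 12.7% of all genes tested had a lower and 10.8% a higher one, 23.5% together. They were YARS1 (-1.13 ± 0.17), WARS1 (-0.90 ± 0.23), IARS1 (-0.84 ± 0.12), VARS1 (-0.79 ± 0.14), CARS1 (-0.73 ± 0.15), TARS1, MARS1, LARS1 and KARS1. Of the 14 mitochondrial genes 2 had a lower effect, FARS2 (-0.66 ± 0.16) and EARS2 (-0.58 ± 0.18). Another 2 had a higher one, NARS2 (0.50 ± 0.18) and WARS2 (0.46 ± 0.16), and either share is near that of all genes tested. Several of the 13 calls missed the threshold without single arrays. For KARS1 these were replicate 2 or 5 of 468 nM and 1 or 2 of DMSO at 4 h, and replicate 2 of 468 nM and 1 or 2 of DMSO at 24 h (adjusted p between 0.0552 and 0.0813). For TARS1 they were replicate 1, 3 or 5 of 468 nM and 1, 2 or 3 of DMSO at 4 h, and replicate 1, 3, 4 or 5 of 468 nM and 1 or 2 of DMSO at 24 h (between 0.0556 and 0.102). For NARS2 they were replicate 4 or 5 of 468 nM and any of DMSO at 4 h, and replicate 1, 3 or 4 of 468 nM and 1, 2 or 4 of DMSO at 24 h (between 0.0507 and 0.0881). For WARS2 they were replicate 1, 4 or 5 of 468 nM and 1 of DMSO at 4 h, and replicate 1, 2 or 3 of 468 nM and 3 or 4 of DMSO at 24 h (between 0.0501 and 0.0828). With arrays set level on reference genes 5 cytosolic genes and 1 mitochondrial gene had a lower effect, and the median over all genes was 0.115. For 75 nM the interaction called 0 of the 31, where 0.0323% of all genes tested were called, and 2 cytosolic genes had an unadjusted p below 0.05, as had 6.84% of all genes tested.

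In DMSO, 24 h differed from 4 h for 2 of the 31 synthetases, a share near the 5.23% of all genes tested that were called. Both were higher, as were 2.63% of all genes tested. TARS2, the mitochondrial threonyl enzyme, read 7.10, 7.43, 7.49 and 7.17 at 4 h and 7.83, 8.22, 7.62 and 7.88 at 24 h, a rise of 0.59 ± 0.12 (adjusted p = 0.00768). AARS1 rose by 0.40 ± 0.11 (adjusted p = 0.0391), from 9.43, 9.65, 9.38 and 9.70 to 10.17, 9.94, 9.72 and 9.95. Neither gene's ranges overlapped between the times, where 6.49% of all genes tested had separate higher ranges. TARS2 and AARS1 missed the threshold with only the DMSO arrays in the fit (adjusted p = 0.0815 and 0.123). AARS1 missed the threshold without DMSO replicate 1, 2 or 3 at 4 h or replicate 1, 2 or 4 at 24 h (adjusted p between 0.0564 and 0.128). The fall of AARS1 at 468 nM is therefore measured from a vehicle level that was higher at 24 h than at 4 h. Its mean was 9.47 ± 0.13 (SD, n = 5) at 4 h and 9.47 ± 0.16 (SD, n = 5) at 24 h under 468 nM. NARS2 (0.28 ± 0.13, adjusted p = 0.192) also had separate higher ranges in DMSO at 24 h without passing. WARS2 changed by -0.26 ± 0.12 in DMSO (adjusted p = 0.178), so its vehicle level at 24 h was the lower one.

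Genes around the synthetases were taken from lists chosen with earlier results known and are described by counts beside the same background for 468 nM at 24 h, 25.1% lower and 20.4% higher. FARSA and FARSB, the subunits of the cytosolic phenylalanyl-tRNA synthetase that the symbol rule leaves out, fell by 0.62 ± 0.13 and 0.52 ± 0.09 on the log2 scale. They were the 2 of 5 synthetase partners that fell. AIMP1, a scaffold of the multi-synthetase complex, read 0.02 ± 0.14.

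Of 13 tested genes of tRNA processing and export 8 fell and 0 rose, with a median change of -0.413. Among them were TRMT61A, part of a tRNA methyltransferase (-0.88 ± 0.25), XPOT, which carries tRNAs out of the nucleus (-0.81 ± 0.08), and the ribonuclease P subunits RPP30 (-0.58 ± 0.14) and POP1 (-0.55 ± 0.10). Of 7 genes of cytosolic elongation and release 5 fell and 0 rose, with EEF1A2, an elongation factor, at -0.82 ± 0.20 and ETF1, a release factor, at -0.49 ± 0.11. Of 16 genes of mitochondrial translation 5 fell and MTFMT, which formylates the initiator tRNA, rose (0.40 ± 0.13), with a median of -0.253. The share that fell is near the 25.1% of all genes tested, and the share that rose is below the 20.4%. The mitochondrial translation genes that fell included the tRNA-modifying enzymes PUS1 (-0.97 ± 0.16), GTPBP3 (-0.94 ± 0.20) and TRMU (-0.82 ± 0.16). QRSL1 (-0.67 ± 0.11), a subunit of the enzyme that converts the glutamyl-tRNA made by EARS2 into glutaminyl-tRNA, fell as well.

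Of 21 tested genes of the ATF4 and amino acid response 14 fell and 0 rose at 468 nM for 24 h, with a median change of -0.633. SLC7A11, the cystine transporter, fell by 2.27 ± 0.38 on the log2 scale, and ALDH1L2, a mitochondrial folate enzyme, fell by 1.85 ± 0.18. SLC7A1, a transporter of basic amino acids, changed by -1.17 ± 0.12 and CHAC1, which breaks down glutathione, by -1.09 ± 0.25. ATF4 itself changed by -0.26 ± 0.08 (adjusted p = 0.0148), from 10.02 ± 0.13 (SD, n = 4) to 9.76 ± 0.10 (SD, n = 5). ASNS, asparagine synthetase, read -0.10 ± 0.14 and did not pass. At 468 nM and 4 h, where 10.9% of all genes tested were called, 2 of these 21 genes were higher and 2 lower. SESN2 and DDIT4 were higher (1.31 ± 0.16 and 0.73 ± 0.19) and SLC7A1 and CEBPG lower (-0.41 ± 0.12 and -0.57 ± 0.17), while no synthetase passed. At that time 2 of the 16 genes of mitochondrial translation and 1 of the 13 of tRNA processing and export were also lower.

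CACGTG, the E-box bound by MYC with MAX, was in IARS1, alone of 14 cytosolic genes, and in CARS2, EARS2 and MARS2, against 8.77% of all genes. MYC had a mean log2 value of 8.79 ± 0.11 (SD, n = 4) in DMSO after 4 h. It read 8.38 ± 0.16 (SD, n = 5) at 75 nM and 7.72 ± 0.20 (SD, n = 5) at 468 nM. After 24 h it read 8.87 ± 0.12 (SD, n = 4) in DMSO and 8.86 ± 0.15 (SD, n = 5) at 75 nM. At 468 nM it then read 8.33 ± 0.33 (SD, n = 5), a change from DMSO of -0.54 ± 0.13 (adjusted p = 0.00185). Whether MYC or ATF4 had a part in the synthetase changes was not tested.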

How the data were processed

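Total RNA of 28 samples was measured on Affymetrix arrays. The authors deposited linear intensity values for 53617 probe sets, summarised with RMA per the submitters' processing notes; no software version and no genome build of the array design is stated in these sources. Deposited intensities were transformed to log2. A gene was represented by the brightest probe set naming it alone, and was tested when its log2 value exceeded 5 on at least 4 arrays, which left 9285 of 22357 genes. All 28 arrays entered 1 limma 3.58.1 model in R 4.3.3 with a mean for each of 6 groups. The model had 22 residual and 3.84 prior degrees of freedom. Benjamini-Hochberg adjustment ran over all genes tested, with a threshold of 0.05. The procedure was tested on simulated data. The initial simulated shifts were called less often than this test asked for, and larger shifts then replaced them. The test therefore gives no support for calls at the smaller changes reported, such as those of EPRS1 and GARS1. Differences are log2 changes with their standard error. Exact permutation tests used SciPy 1.17.1. The number of arrays limits the precision.

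The members, lists and motifs were chosen with earlier results of these data known. Values per array are given for the 6 largest changes called at 468 nM and 24 h and for the other-compartment enzyme of the same amino acid, except dim genes such as CARS2, named with their mean; this rule named YARS1, WARS1, IARS1, CARS1, VARS1 and EARS2. Other genes described with array values, such as QARS1, TARS2 and AARS1, were chosen after their values were seen. In the lists, at most 4 genes called with the largest changes are named, with MYC and ATF4; AIMP1, ASNS, MTFMT and ETF1 were added after their values were seen. Alternatives varied the brightness limit, the probe set rule, the arrays in the fit, the normalization, an offset before log2, array weights, a replicate block and single arrays. Sequences are from RefSeq.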

Additional observations from a re-analysis of the deposited data

Results flagged for a closer look

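In 186 groups of array values of the synthetases, 10 held an array far from the others by Dixon's ratio, where chance gives about 1 in 20. At 468 nM and 24 h, CARS1 read 6.93 on replicate 4 (others 6.60 to 6.68), MARS1 read 8.25 on replicate 2 (others 8.60 to 8.74) and RARS2 read 9.55 on replicate 4 (others 8.99 to 9.14). At 468 nM and 4 h, MARS1 read 8.74 on replicate 2 (others 9.02 to 9.11), EARS2 read 7.10 on replicate 3 (others 7.33 to 7.36) and NARS2 read 6.93 on replicate 5 (others 7.06 to 7.11). On replicate 4 of 75 nM at 24 h, NARS1 read 10.40 (others 10.62 to 10.70) and IARS2 read 9.24 (others 9.51 to 9.61). In DMSO, RARS2 read 9.19 on replicate 3 at 24 h (others 8.87 to 8.89) and WARS2 read 7.77 on replicate 1 at 4 h (others 7.61 to 7.64).

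For 13 of the 31 synthetases the effect of 468 nM differed between 24 h and 4 h by the interaction (limma, Benjamini-Hochberg adjusted p). Of all genes tested 23.5% differed in this way. The difference was -1.13 for YARS1 (adjusted p = 3.75e-05), -0.90 for WARS1 (0.00552), -0.84 for IARS1 (1.34e-05), -0.79 for VARS1 (0.000148), -0.73 for CARS1 (0.000751), -0.53 for TARS1 (0.0444), -0.50 for MARS1 (0.00979), -0.39 for LARS1 (0.0144) and -0.34 for KARS1 (0.034). It was -0.66 for FARS2 (0.00487), -0.58 for EARS2 (0.0179), 0.50 for NARS2 (0.0408) and 0.46 for WARS2 (0.0341). Of the 14 mitochondrial genes 2 were thus lower and 2 higher, near the 12.7% and 10.8% of all genes tested.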

How the results depend on the processing

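Of 1038 values of the 51 called synthetase results under the alternatives, 902 kept their direction and call, 136 kept the direction and missed the threshold, and 0 turned. At 468 nM for 24 h 11 cytosolic and 4 mitochondrial genes were called throughout. The cause of each difference listed here was not tested, except that a limit on brightness changes which genes enter. With no limit on brightness the mitochondrial median was -0.104 for 75 nM at 4 h and -0.027 for 468 nM at 24 h, where 1 rose; between the doses at 24 h 0 cytosolic genes rose, 1 mitochondrial fell and 0 rose; the interaction of 468 nM called 1 mitochondrial gene lower and 0 higher, and DMSO over time 0 cytosolic genes. With a limit of log2 7 the mitochondrial median was -0.104 (75 nM, 4 h), 0.092 (468 nM, 24 h, with 3 lower) and 0.125 (between doses at 24 h, with 1 lower); 2 cytosolic genes fell at 75 nM and 24 h, and 1 mitochondrial gene was lower by the interaction. With only the groups compared in the fit, 468 nM at 24 h gave 0 cytosolic genes higher, 3 mitochondrial lower and 1 higher, the doses at 24 h 0 cytosolic higher, 1 mitochondrial lower and 0 higher, the interaction 1 mitochondrial higher, and DMSO over time 0 genes of either class.

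With arrays set level on 9 reference genes, of which 3 rose and 4 fell at 468 nM and 24 h before that step, cytosolic and mitochondrial medians were -0.165 and -0.237 (468 nM, 4 h), -0.247 and -0.140 (75 nM, 24 h, 1 cytosolic lower), -0.132 and -0.120 (between doses, 4 h), -0.263 and -0.077 (75 nM interaction), -0.292 and 0.125 (468 nM interaction, 5 cytosolic and 1 mitochondrial lower) and 0.221 and 0.159 (DMSO over time, 2 mitochondrial higher). At 24 h it left 1 mitochondrial gene higher at 468 nM and 1 lower between the doses. The median over all genes became -0.153 at 468 nM and 4 h, -0.13 between the doses at 4 h, 0.115 for the 468 nM interaction and 0.139 for time in DMSO. Calls over all genes, lower and higher, went from 645 and 368 to 1011 and 196 (468 nM, 4 h), from 44 and 37 to 72 and 13 (75 nM, 24 h), from 133 lower of 238 to 212 and 42 (between doses, 4 h), from 1179 and 1005 to 749 and 1112 (interaction), and from 242 and 244 to 76 and 757 (DMSO over time). Repeated quantile normalization gave 1 cytosolic gene lower at 75 nM and 24 h, 2 mitochondrial higher between the doses and 1 by the interaction. An offset before log2, and array weights, each gave 1 cytosolic gene lower at 75 nM and 24 h. Averaging probe sets moved the mitochondrial median at 468 nM and 24 h to -0.034.

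Leaving out single arrays gave 0 to 1 mitochondrial genes lower and 0 to 1 higher at 468 nM and 4 h. At 468 nM and 24 h the cytosolic median ran from -0.488 to -0.397 and 1 to 3 mitochondrial genes rose, with a mitochondrial median from -0.192 to -0.082. At 75 nM and 24 h that median ran from -0.107 to -0.021. Between the doses at 24 h 0 to 1 cytosolic genes rose, 1 to 3 mitochondrial fell and 0 to 2 rose. The mitochondrial median ran from -0.039 to 0.081 for the 75 nM interaction and from -0.055 to 0.099 for that of 468 nM, which called 0 to 1 cytosolic and 0 to 2 mitochondrial genes higher. DMSO over time called 0 to 1 cytosolic genes higher.

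With a replicate block built from runs of adjacent title codes, 468 nM at 24 h gave 14 cytosolic genes lower and 1 higher (median -0.470) and 6 mitochondrial lower and 4 higher, and 75 nM at 24 h gave 2 cytosolic lower, IARS1 (adjusted p = 0.0402) and WARS1 (0.0154). RARS2 passed at 468 nM and 24 h (0.0117), and the 468 nM interaction gave 12 cytosolic genes lower, AARS1 among them (0.00601), and 3 mitochondrial lower and 3 higher. Over all 9285 genes tested the block also raised the calls, lower and higher. At 468 nM and 24 h they went from 2335 and 1896 to 2558 and 2182, and at 75 nM and 24 h from 44 and 37 to 231 and 203. For the 468 nM interaction they went from 1179 and 1005 to 1448 and 1360. DMSO over time could not be fitted with the block. The 26 pairs of arrays in a run correlated between 0.015 and 0.345 (median 0.205, 23 over 0.1), the 300 others between -0.32 and 0.272 (median -0.013, 40 over 0.1). Arrays of a run thus deviated together more than others, and the main fit leaves this shared deviation out. The labels do not say what the codes mean, so the block stayed an alternative. Dim probe sets such as CARS2 and PARS2 lie near background and limit what could be seen of the mitochondrial class.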
